A study of Oryctolagus cuniculus with 20 samples.

Results

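FBN1, FBLN7 and SVEP1 encode glycoproteins of the extracellular matrix, and their expression was measured here by RNA-seq in the tricuspid valves of 20 rabbits. They are 3 of the 23669 genes in the count data, of which 13749 had at least 1 count in a valve. The genes were picked because they are on the study's list of genes that differed from non-treated valves. FBLN7 and SVEP1 are on that list for serotonin and for both drugs, and FBN1 for the drugs alone. That choice was made on these same valves, so each comparison with non-treated valves is a description without a test, and so are the comparisons of FBN1 in drug-treated with serotonin-treated valves.

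Fibrillin-1, the product of FBN1, assembles into microfibrils, the thin filaments that give connective tissue its scaffold and on which elastic fibres form. Microfibrils also hold latent transforming growth factor-β (TGF-β) and bone morphogenetic proteins in the matrix, and mutations of FBN1 cause Marfan syndrome, in which heart valve leaflets can thicken and prolapse. FBLN7 encodes fibulin-7, a small member of the fibulin family of secreted adhesion proteins, and SVEP1 encodes polydom, a long mosaic protein of sushi, von Willebrand factor and pentraxin domains that binds an integrin and takes part in the growth of lymphatic vessels.

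The rabbits were female New Zealand white rabbits, 8 weeks old at the start, and the tricuspid valves of 5 animals per group were sequenced after 16 weeks. Non-treated rabbits drank water. Serotonin was given in the drinking water at 80 mg/kg per day, pergolide, a dopamine agonist, at 0.5 mg/kg per day, and dexfenfluramine, an appetite suppressant, at 20 mg/kg per day. Both drugs are known for valve disease in patients, and the study compared their effects on the valve with those of serotonin. With 1 dose for each agent, a difference between treatments is a difference between those doses.

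Between 3247091 and 5921025 reads were counted on genes in a valve, and the median of a group ran from 3890579 in serotonin valves and 4294294 in dexfenfluramine valves to 4573978 in non-treated and 4794216 in pergolide valves. FBN1 had between 2202 and 9417 reads in a valve, SVEP1 between 152 and 659, and FBLN7 between 62 and 385. All 3 genes passed the filter on low counts and were among the 8683 genes tested. FBN1 (ENSOCUG00000003866) had more reads than 99.6% of the tested genes, SVEP1 (ENSOCUG00000016227) more than 84.5% and FBLN7 (ENSOCUG00000002898) more than 69.3%. These ranks depend on transcript length, which was not used here, so the levels of the genes are not compared with one another. Expression is given in CPM, the count scaled to a common total for all valves after TMM normalization, which corrects the totals for a few dominant genes.

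The tissue label was checked against marker genes. Of 7 markers of valvular interstitial cells, the fibroblast-like cells of the leaflet, 6 had a gene symbol, and all of them were expressed. Their summed expression was 6166 ± 992 CPM (SD, n = 5) in the non-treated group, 6804 ± 702 CPM with serotonin, 8221 ± 1394 CPM with pergolide and 8826 ± 1181 CPM with dexfenfluramine. VIM was the most abundant, and the markers in this sum did not move alike. In the same order of groups VIM had means of 2792, 2661, 2645 and 3607 CPM. COL3A1 had means of 1044, 1315, 2090 and 2016.5 CPM, and LUM of 153, 201, 244 and 164 CPM. The valves also held much RNA of cardiomyocytes. Of 8 cardiomyocyte markers 4 had a symbol, and their sum, mostly TTN, was 102064 ± 37892 CPM (SD, n = 5) in the non-treated group, 71035 ± 21921 CPM with serotonin, 68687 ± 19839 CPM with pergolide and 50135 ± 22534 CPM with dexfenfluramine. The markers in the cardiomyocyte sum did not move alike either. In the same order of groups, TNNT2 had means of 3099, 2958, 643 and 449 CPM, and ACTC1 of 1724, 1383, 1717 and 1071 CPM. Non-treated replicate 3 and dexfenfluramine replicate 3 stood apart from their groups, with cardiomyocyte sums of 46437 and 11876 CPM where the other valves of those groups had at least 90368 and 49195 CPM. In valve tissue as a whole, fewer cells of a type and less RNA per cell cannot be told apart.

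FBN1 was expressed at 794, 915, 1186, 771 and 826 CPM in non-treated replicates 1 to 5, and at 962, 923, 1089, 1054 and 975 CPM in the serotonin valves. Non-treated replicate 3 was higher than every serotonin valve, and the groups overlapped. In pergolide valves FBN1 was at 1356, 1467, 1255, 1437 and 1554 CPM, and in dexfenfluramine valves at 1308, 1560.3, 1695, 1269.6 and 1499.6 CPM. Each of these 10 valves was above every non-treated valve and every serotonin valve, while pergolide and dexfenfluramine valves overlapped. The share of all tested genes with the 5 treated valves above the 5 non-treated valves was 7.95% for pergolide and 8.26% for dexfenfluramine.

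**Figure D1:**
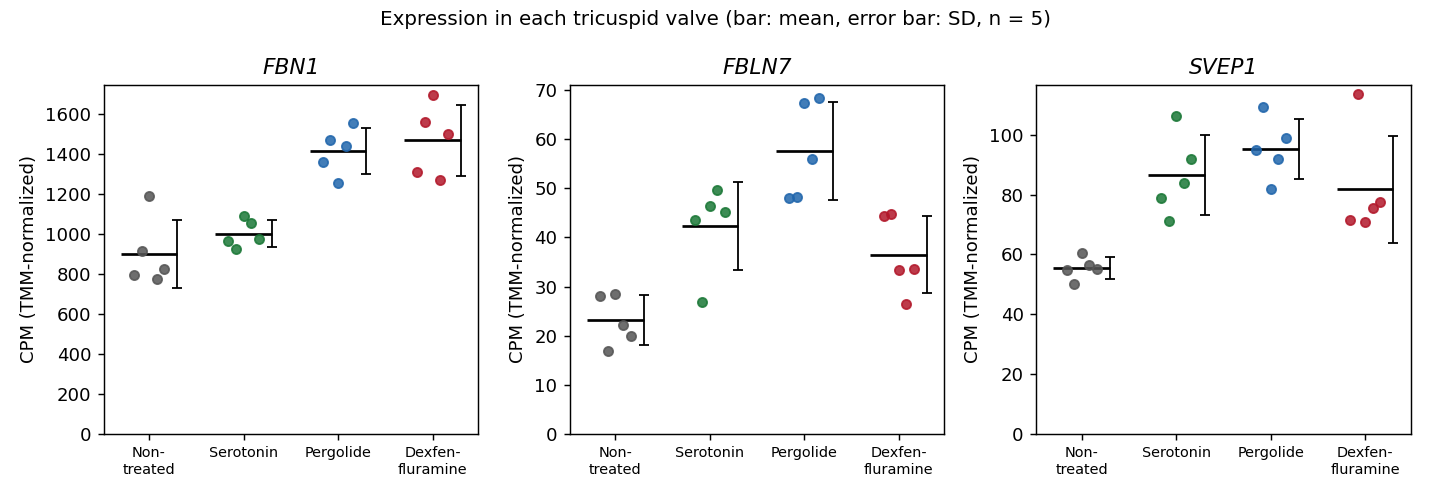
CPM of FBN1, FBLN7 and SVEP1 in each tricuspid valve after TMM normalization, by treatment group. Points are the 5 valves of a group, horizontal bars their mean and error bars the SD. FBN1 is at 1255 CPM or more in every drug-treated valve and at 1186 CPM or less in the others, while FBLN7 has its highest mean in the pergolide valves, at 48.1 to 68.5 CPM, which overlap the serotonin valves.

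The means of FBN1 were 898 ± 170 CPM (SD, n = 5) without treatment, 1000.4 ± 68.4 CPM after serotonin, 1414 ± 114 CPM after pergolide and 1466 ± 178 CPM after dexfenfluramine. The order thus ran from non-treated to dexfenfluramine valves. The non-treated and serotonin means differed by less than the SD of the non-treated valves but by more than that of the serotonin valves, and the means of both drugs by less than the SD of either. Relative to non-treated valves the log2 fold change of FBN1 was 0.15 (standard error 0.116) after serotonin, 0.65 (standard error 0.116) after pergolide and 0.71 (standard error 0.116) after dexfenfluramine. Without non-treated replicate 3 and dexfenfluramine replicate 3, left out together after the data had been seen, these values were 0.27, 0.77 and 0.76. With 1 valve left out the serotonin value ran from 0.10, without non-treated replicate 4, to 0.27, without non-treated replicate 3. With 4 surrogate variables from svaseq, which estimate variation that the groups leave unexplained, the serotonin value was -0.0081.

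FBLN7 was expressed at 28.1, 16.8, 28.4, 22.1 and 20.0 CPM in non-treated replicates 1 to 5, and at 43.6, 26.9, 46.5, 49.6 and 45.2 CPM in the serotonin valves. All serotonin valves but replicate 2 were above every non-treated valve. Pergolide valves had 48.1, 48.2, 67.4, 55.9 and 68.5 CPM of FBLN7, and dexfenfluramine valves 44.3, 44.8, 33.3, 26.5 and 33.7 CPM. All 5 pergolide valves were above all non-treated valves, as were 4 of the 5 dexfenfluramine valves, and replicate 4 of that group lay within the non-treated range.

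The means of FBLN7 were 23.1 ± 5.10 CPM (SD, n = 5) without treatment, 36.5 ± 7.89 CPM after dexfenfluramine, 42.4 ± 8.92 CPM after serotonin and 57.6 ± 9.97 CPM after pergolide. In this order the dexfenfluramine and serotonin means were closer than the spread of their valves. Against non-treated valves the log2 fold change of FBLN7 was 0.88 (standard error 0.185) after serotonin, 1.32 (standard error 0.182) after pergolide and 0.66 (standard error 0.183) after dexfenfluramine. Of all tested genes, 98.4% had a lower log2 fold change than FBLN7 with serotonin, 99.1% with pergolide and 92.1% with dexfenfluramine. These ranks follow in part from the choice of FBLN7, which was listed as differing in these same comparisons. With the surrogate variables the pergolide and dexfenfluramine values were 0.90 and 0.22.

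SVEP1 was expressed at 54.8, 50.1, 60.4, 56.5 and 55.2 CPM in non-treated replicates 1 to 5, and at 79.0, 71.2, 106, 83.9 and 91.8 CPM in the serotonin valves. In pergolide valves it was at 94.8, 109, 82.0, 91.8 and 98.9 CPM, and in dexfenfluramine valves at 71.4, 114, 70.7, 75.7 and 77.6 CPM. The non-treated valves lay close together, and all 15 treated valves were above them. All 5 serotonin valves were above all 5 non-treated valves in 2.05% of the tested genes. Dexfenfluramine replicate 2 was the highest of all valves, and the other valves of its group lay between 70.7 and 77.6 CPM, where the lowest serotonin valve had 71.2 CPM.

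The means of SVEP1 were 55.4 ± 3.68 CPM (SD, n = 5) without treatment, 81.8 ± 18.0 CPM after dexfenfluramine, 86.5 ± 13.4 CPM after serotonin and 95.4 ± 10.0 CPM after pergolide, and the treated groups overlapped with one another. The log2 fold change of SVEP1 against non-treated valves was 0.64 (standard error 0.128) after serotonin, 0.78 (standard error 0.127) after pergolide and 0.56 (standard error 0.127) after dexfenfluramine. Across all tested genes the median log2 fold change was 0.01, 0.02 and 0.03 in the same order. The 5 non-treated valves are shared by all of these comparisons, and any chance deviation in them is part of each value.

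Markers of other cells than those above are given as a description, without a test of the sums. Of 6 adipocyte markers 3 had a symbol, led by ADIPOQ, and their sum was 35.8 ± 19.7 CPM (SD, n = 5) without treatment, 73.3 ± 38.3 CPM after serotonin, 122.7 ± 50.5 CPM after pergolide and 57.4 ± 40.9 CPM after dexfenfluramine, the same order of groups as for the means of FBLN7 and SVEP1. That order held also for C1QA, the macrophage marker of 5 that had a symbol, with means of 7.28 ± 3.87 CPM (SD, n = 5) without treatment, 12.2 ± 1.88 CPM after dexfenfluramine, 13.5 ± 9.20 CPM after serotonin and 19.3 ± 8.25 CPM after pergolide. PECAM1, the endothelial marker with a symbol of 6, had means of 212 ± 66.2, 227 ± 33.6, 127 ± 31.0 and 169.7 ± 28.1 CPM (SD, n = 5) without treatment and after serotonin, pergolide and dexfenfluramine. The smooth muscle sum, 2 of 3 markers and mostly DES, had means of 426 ± 150, 369 ± 72.2, 410.2 ± 34.5 and 309.7 ± 133 CPM in that order, and the Schwann cell sum, 2 of 3 markers and mostly S100B, of 28.4 ± 10.2, 26.9 ± 8.15, 23.5 ± 6.96 and 29.4 ± 7.47 CPM, and for both sums the groups overlapped. TAGLN, from a list of 4 markers of activated interstitial cells, had means of 2.09 ± 0.687, 1.92 ± 1.10, 4.15 ± 0.740 and 5.37 ± 2.09 CPM. None of the markers with a symbol was at 0, and markers of chondrocytes, erythroid cells and melanocytes had no symbol. The part of these cell types in the values of FBN1, FBLN7 and SVEP1 was not tested.

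On a scale added after the data had been seen, the summed counts of the interstitial markers, FBN1 had 146 ± 16.7 counts per 1000 marker counts (SD, n = 5) in the non-treated group, 148 ± 11.3 with serotonin, 174 ± 16.0 with pergolide and 167 ± 9.18 with dexfenfluramine. The 4 groups overlapped. FBLN7 had 3.75 ± 0.619 counts per 1000 marker counts in the non-treated group, 6.17 ± 0.881 with serotonin, 7.12 ± 1.55 with pergolide and 4.17 ± 0.932 with dexfenfluramine. On this scale the dexfenfluramine valves, at 3.11 to 5.30 counts, overlapped the non-treated valves, at 2.77 to 4.39, and the serotonin and pergolide valves, at 4.79 and 6.02 counts or more, were all above the non-treated valves. SVEP1 had 9.15 ± 1.45 and 9.38 ± 2.16 counts per 1000 in non-treated and dexfenfluramine valves, and 12.7 ± 1.14 and 11.8 ± 1.73 after serotonin and pergolide. Collagen genes that rose with the drugs are among these markers, so the scale is not a neutral one.

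The treatments were then compared with one another. Non-treated valves are on neither side of these comparisons, but they take part in the normalization, the filter and the spread of the fit. With edgeR's quasi-likelihood test and Benjamini-Hochberg adjustment over all tested genes, FBLN7 had a log2 fold change of 0.44 (95% interval 0.08 to 0.80) in pergolide against serotonin valves, with an adjusted p of 0.0658, and 3 of the 5 pergolide valves were above every serotonin valve. It did not pass the threshold of 0.05, which 27.5% of the tested genes passed in this comparison. In a fit of these 2 groups alone the adjusted p was 0.0531. With a valve left out the log2 fold change ran from 0.31 to 0.50 and the adjusted p from 0.0536 to 0.192. The value of 0.31, with the adjusted p of 0.192, was that without serotonin replicate 2. With 1 RUVr factor, another estimate of unexplained variation, the log2 fold change was 0.44 and the adjusted p 0.0445. With the surrogate variables the value was -0.06 with an adjusted p of 0.888. In dexfenfluramine against serotonin valves FBLN7 had a log2 fold change of -0.22 (95% interval -0.59 to 0.15, adjusted p = 0.376). With a valve left out this value ran from -0.35 to -0.12, and with the surrogate variables it was -0.74 with an adjusted p of 0.0259.

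Of the 3 genes, FBLN7 differed most between the drugs. Its log2 fold change in dexfenfluramine against pergolide valves was -0.66 (95% interval -1.02 to -0.30), and all 5 dexfenfluramine valves, at up to 44.8 CPM, were below all 5 pergolide valves, at 48.1 CPM or more. The 5 dexfenfluramine valves were below the 5 pergolide valves in 0.541% of the tested genes. The unadjusted p of edgeR's quasi-likelihood test was 0.00105, and adjusted over all 8683 genes it was 0.457, which does not pass. No gene passed in this comparison (0% of those tested), whereas 613 genes (7.06%) had an unadjusted p under 0.05, DESeq2 called 4 and edgeR with 1 RUVr factor called 115. With that factor FBLN7 had an adjusted p of 0.0484, and over the other alternative fits, those that left out a valve included, its log2 fold change lay between -0.74 and -0.56 and its adjusted p was at least 0.149.

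**Figure D2:**
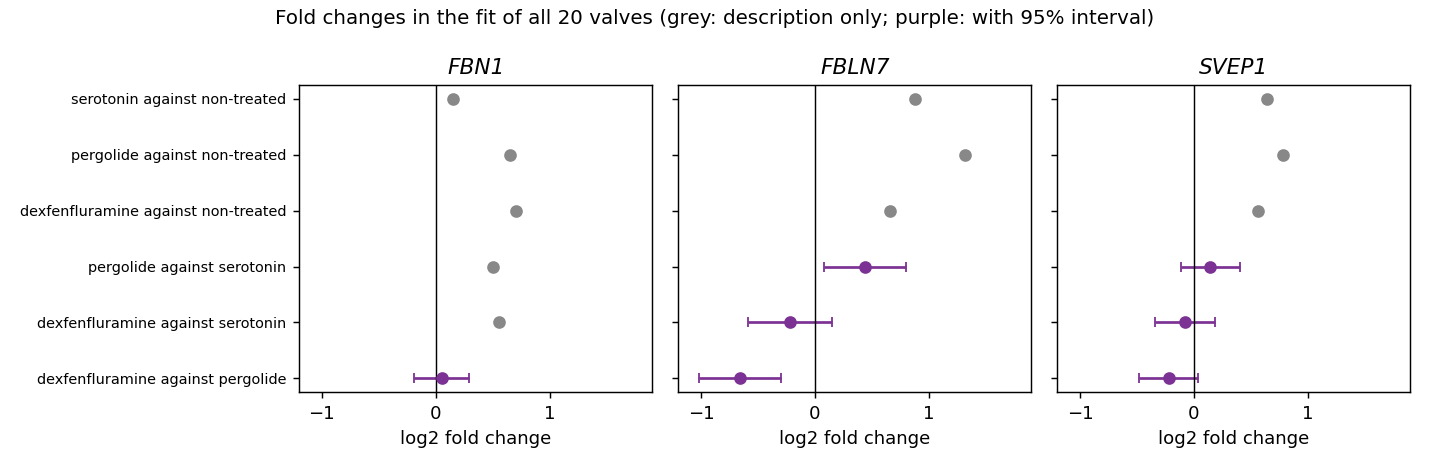
Log2 fold changes of FBN1, FBLN7 and SVEP1 from the edgeR fit of all 20 valves. Grey points are the comparisons that are a description only and have no interval, and purple points are the other comparisons of treatments, with 95% intervals. Between dexfenfluramine and pergolide the interval of FBLN7 runs from -1.02 to -0.30 and those of FBN1 and SVEP1 include 0.

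FBN1 had nearly the same level after both drugs. Its log2 fold change in dexfenfluramine against pergolide valves was 0.05 (95% interval -0.19 to 0.29, adjusted p = 0.934), and without dexfenfluramine replicate 3 it was -0.0047. A p that misses the threshold does not show that the levels are alike, and the interval allows a difference of up to 0.29 on the log2 scale. As a description, FBN1 was 0.50 higher on the log2 scale in pergolide than in serotonin valves, and 0.55 higher in dexfenfluramine than in serotonin valves. In both of these comparisons all 5 drug-treated valves were above all 5 serotonin valves, as for 8.38% and 8.75% of the tested genes. All 5 were below in 11.9% and 12.2%.

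SVEP1 did not pass the threshold between any treatments. Its log2 fold change was 0.14 in pergolide against serotonin valves (95% interval -0.12 to 0.40, adjusted p = 0.431) and -0.08 in dexfenfluramine against serotonin valves (95% interval -0.34 to 0.18, adjusted p = 0.675). With a valve left out these values ran from 0.07 to 0.23 and from -0.23 to 0.0058, and with the surrogate variables the value of pergolide was 0.03. In dexfenfluramine against pergolide valves it was -0.22 (95% interval -0.48 to 0.04, adjusted p = 0.738). In this comparison 4 of the 5 dexfenfluramine valves were below every pergolide valve, and replicate 2 was above them all. Without that replicate the value was -0.37.

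Ratios of the counts of a pair of genes within a valve do not depend on the valve's total. FBLN7 had 35.4, 18.4, 24.0, 28.6 and 24.2 counts per 1000 counts of FBN1 in non-treated replicates 1 to 5, and 45.3, 29.1, 42.7, 47.1 and 46.4 in serotonin valves. In pergolide valves the ratio was 35.5, 32.9, 53.7, 38.9 and 44.1, and in dexfenfluramine valves 33.9, 28.7, 19.6, 20.8 and 22.4. Dexfenfluramine and non-treated valves overlapped, and the highest dexfenfluramine valve was above the lowest pergolide valve. The means were 26.1 ± 6.35 (SD, n = 5) without treatment, 42.1 ± 7.44 after serotonin, 41.0 ± 8.26 after pergolide and 25.1 ± 6.03 after dexfenfluramine.

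**Figure D3:**
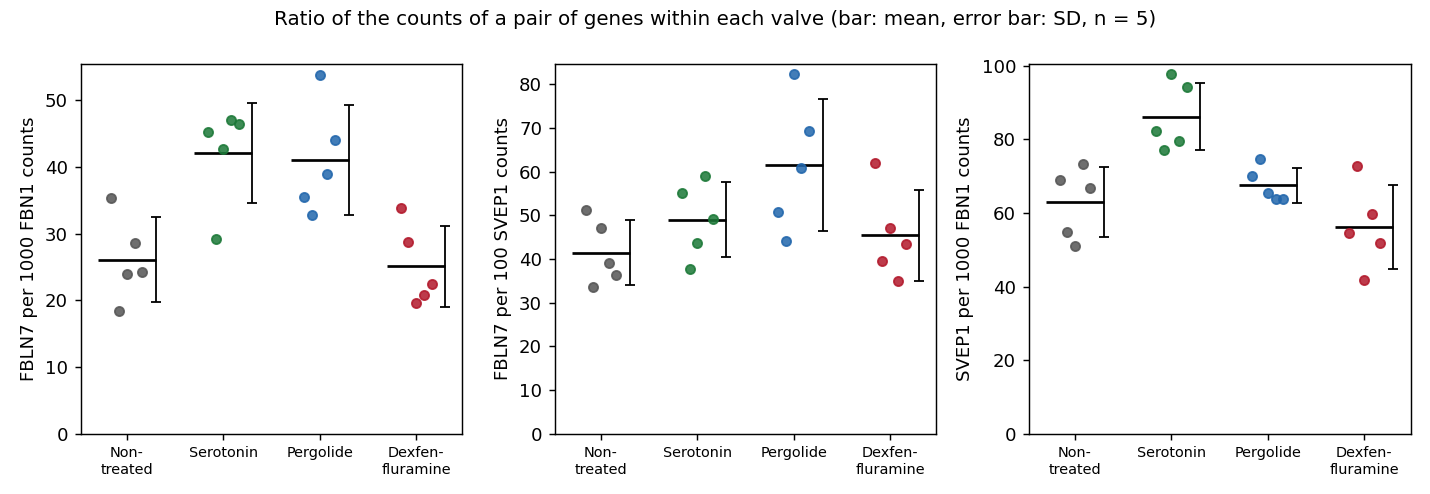
Counts of FBLN7 and SVEP1 per 1000 counts of FBN1, and of FBLN7 per 100 counts of SVEP1, in each valve. Points are valves, horizontal bars the means of 5 valves and error bars the SD. SVEP1 per 1000 FBN1 counts is between 77.1 and 97.7 in the serotonin valves and at most 74.6 in the others, which follows in part from the choice of the genes.

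SVEP1 had 82.1, 77.1, 97.7, 79.6 and 94.2 counts per 1000 counts of FBN1 in serotonin valves, and 69.0, 54.8, 50.9, 73.2 and 66.9 in non-treated valves. In pergolide valves it had 69.9, 74.6, 65.3, 63.9 and 63.6, and in dexfenfluramine valves 54.6, 72.8, 41.7, 59.6 and 51.7. The serotonin valves were thus above the other 15 valves, and the other groups overlapped. This ratio in serotonin valves follows in part from the choice of the genes, since SVEP1 was on the list for serotonin and FBN1 was not, and it was not tested.

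Only ratios apart from that choice were tested, by exact two-sided permutation tests of the log2 ratio adjusted over 5 comparisons, in which the smallest possible p was 0.00794. These tests of ratios had not been planned beforehand. The log2 ratio of FBLN7 to FBN1 differed by -0.72 between dexfenfluramine and pergolide valves (exact p = 0.0159, adjusted p = 0.0794). That of SVEP1 to FBN1 differed by -0.29 (exact p = 0.0635, adjusted p = 0.132). The log2 ratio of FBLN7 to SVEP1 differed by 0.31 between pergolide and serotonin (exact p = 0.151, adjusted p = 0.188), by -0.12 between dexfenfluramine and serotonin (exact p = 0.508) and by -0.43 between dexfenfluramine and pergolide (exact p = 0.0794, adjusted p = 0.132). None passed after adjustment. With a valve left out, the difference in FBLN7 to FBN1 ran from -0.83 to -0.61 and that in SVEP1 to FBN1 from -0.39 to -0.19. For FBLN7 to SVEP1 the differences ran from 0.20 to 0.42, from -0.24 to -0.03 and from -0.55 to -0.32 in the order given.

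Within a group, the valves did not rank alike for the 3 genes in every case. Non-treated replicate 3 was the highest of its group for each gene, and serotonin replicate 2 the lowest. Dexfenfluramine replicate 3 had the highest FBN1 and the lowest SVEP1 of its group, and pergolide replicate 3 had the lowest FBN1 and SVEP1 but an FBLN7 level close to the highest. The SD of log2 CPM within groups was 0.171 for FBN1, 0.200 for SVEP1 and 0.311 for FBLN7, and 20.5%, 29.0% and 55.9% of the tested genes had a lower one. FBLN7 had the fewest reads of the 3 genes, and the part of counting error in its spread was not tested.

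Relations between valves were examined on the deviations of log2 CPM from the group means, over 20 valves, with 100000 permutations of the valves within groups. Adjustment was over 33 relations, those of each gene with the 8 marker sums, the total count and the share of the most abundant gene, and those between the genes. The relations to be described were chosen after the values of r had been seen. FBN1 went with the summed interstitial markers (Pearson r = 0.773, permutation p = 0.00017, adjusted p = 0.00561, Spearman rho = 0.752, permutation p = 0.00073, adjusted p = 0.0241). Without the 2 valves farthest from the median of the markers r was 0.749. For FBLN7 r with these markers was 0.515 (permutation p = 0.0318, adjusted p = 0.175) and rho 0.556 (permutation p = 0.0235, adjusted p = 0.129), and for SVEP1 r was 0.317 (permutation p = 0.176, adjusted p = 0.508) and rho 0.353 (permutation p = 0.133, adjusted p = 0.366). Against the summed cardiomyocyte markers, FBN1 had an r of -0.703 (permutation p = 0.00112, adjusted p = 0.0123) and a rho of -0.675 (permutation p = 0.00223, adjusted p = 0.0277), and r was -0.508 without non-treated replicate 3 and dexfenfluramine replicate 3. For FBLN7 and SVEP1 r with the cardiomyocyte markers was -0.146 and -0.041, with permutation p of 0.595 and 0.878 (adjusted p = 0.818 and 0.934), and rho was -0.156 and -0.271, with permutation p of 0.552 and 0.266 (adjusted p = 0.674 and 0.529). FBN1 also went against the smooth muscle sum, mostly DES, which heart muscle expresses too (r = -0.746, permutation p = 0.00039, adjusted p = 0.00643, rho = -0.678, permutation p = 0.00252, adjusted p = 0.0277), and r was -0.611 without the same 2 valves. These 3 relations of FBN1 passed, and the other 30 did not. All values come from the same libraries, in which a larger share of one kind of RNA leaves less for the rest.

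**Figure D4:**
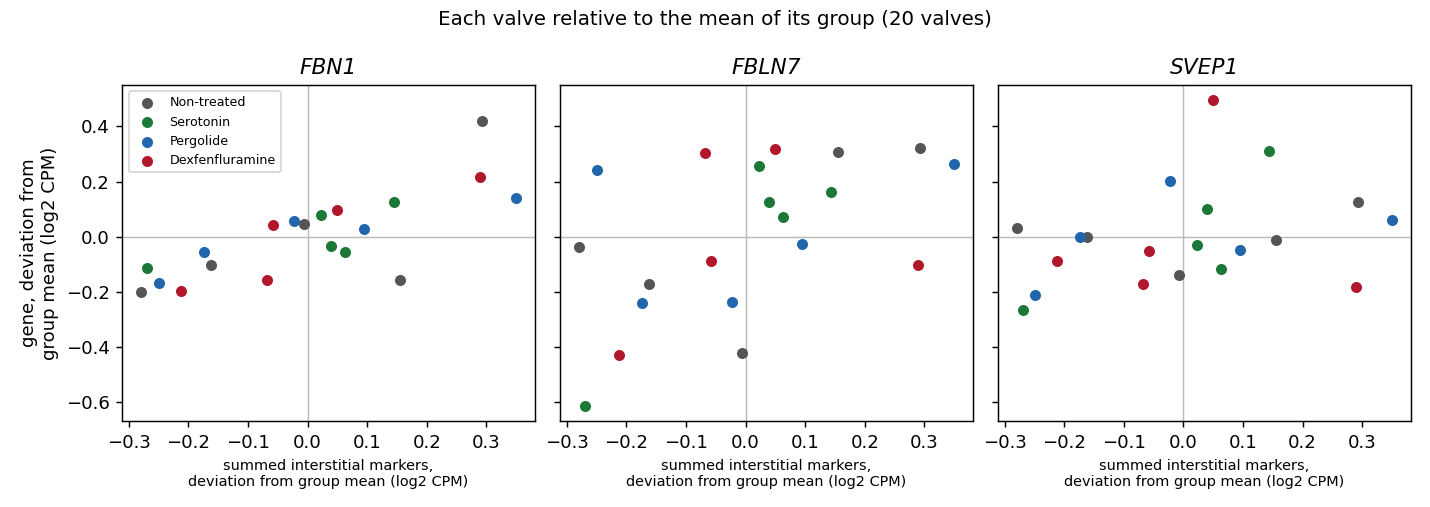
Deviation of FBN1, FBLN7 and SVEP1 from the mean of their group, in log2 CPM, against that of the summed valvular interstitial markers, for 20 valves. Points are valves and are coloured by treatment. Pearson r is 0.773 for FBN1, 0.515 for FBLN7 and 0.317 for SVEP1.

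The share of counts taken by the most abundant gene, which has no symbol, ran from 40.7% ± 7.39 (SD, n = 5) in the non-treated group to 35.9% ± 4.07 with serotonin, 32.9% ± 2.13 with pergolide and 29.1% ± 5.65 with dexfenfluramine. With this share FBN1 had an r of -0.697 (permutation p = 0.00918, adjusted p = 0.0757) and a rho of -0.603 (permutation p = 0.0149, adjusted p = 0.0983), which did not pass. Without non-treated replicate 3 and dexfenfluramine replicate 3 r was -0.357, so the value of r rests largely on those valves. For FBLN7 and SVEP1 r was -0.173 and -0.0933, with permutation p of 0.520 and 0.741 (adjusted p = 0.781 and 0.823), and rho was -0.224 for both, with permutation p of 0.403 and 0.369 (adjusted p = 0.572 for both). Among the genes themselves, r was 0.274 between FBN1 and FBLN7 (permutation p = 0.302, adjusted p = 0.622, rho = 0.289, permutation p = 0.278, adjusted p = 0.529), 0.395 between FBN1 and SVEP1 (permutation p = 0.0682, adjusted p = 0.311, rho = 0.411, permutation p = 0.0738, adjusted p = 0.304) and 0.394 between FBLN7 and SVEP1 (permutation p = 0.128, adjusted p = 0.438, rho = 0.374, permutation p = 0.117, adjusted p = 0.366). None of these 3 passed.

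The genes that deviated most like the members across the 20 valves are given by r alone, as a description. They are the highest of 8683 tested genes, and a high r can come from that choice alone. Whether any of them goes with a member beyond this was not tested. For each member, the 5 tested genes with the highest r were taken. For FBN1 they had r of 0.853 to 0.897, and 2 had a symbol, COL3A1, a fibrillar collagen chain, with r = 0.873 and MASP1, a serine protease of the complement system, with r = 0.853. For FBLN7, with r of 0.729 to 0.776, those with a symbol were OSGIN1 (r = 0.771) and TENM4 (r = 0.754). For SVEP1, with r of 0.670 to 0.709, they were TPCN3 (r = 0.709), GCN1 (r = 0.691), MED24 (r = 0.670) and UAP1 (r = 0.670). No gene was among the 5 of more than 1 member. COL3A1 is also one of the interstitial markers.

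Other genes were taken from a list of 48, called here the microfibril and elastic fibre list. It joins microfibril genes, elastic fibre and crosslinking genes, and ADAMTS and ADAMTS-like genes linked to fibrillin. It also holds other fibulins and modular glycoproteins, such as the basement membrane gene NID1. Symbols could be had only from the study's own selection of genes, made on the same valves, and 15 of the 48 had one, so the counts of called genes are not independent evidence of a change or its direction. With serotonin 0 of the 15 passed the threshold, where 1.19% of all tested genes did. That share is unstable, as 0 to 257 genes were called for serotonin with a valve left out and 538 with 1 RUVr factor, which also called 1 of the 15. With pergolide 7 rose and 0 fell, against 12.1% of tested genes higher and 12.7% lower, and with dexfenfluramine 8 rose and 0 fell, against 13.5% and 15.4%. The genes that rose with pergolide were 3 microfibril genes, 3 other fibulins and modular glycoproteins and 1 ADAMTS-like gene. With dexfenfluramine they were 4, 3 and 1 in this order, and 0 were elastic fibre genes with either drug. Of the 3448 tested genes with a symbol 28.1% were higher and 28.7% lower with pergolide, and 31.8% higher and 34.4% lower with dexfenfluramine. In either direction 56.7% and 66.2% of these genes were called, so the number of called genes in the list is not large for genes with a symbol. The median log2 fold change of the 15 genes was 0.18 for serotonin, 0.40 for pergolide and 0.48 for dexfenfluramine. In pergolide against serotonin and in dexfenfluramine against serotonin 5 genes were higher and 0 lower, where 12.4% and 13.9% of tested genes were higher and 15.1% and 16.4% lower, and of those with a symbol 22% and 25.1% higher and 26% and 28.6% lower. Between the drugs 0 passed. With the surrogate variables the numbers called against non-treated valves were 4 for pergolide and 2 for dexfenfluramine, in limma-voom, which without them called 7 and 5. With 1 RUVr factor they were 10 and 12, and without non-treated replicate 4 the number for dexfenfluramine was 5. Without serotonin replicate 2, and without replicate 5, 3 genes were called in pergolide against serotonin. The means of the interstitial and cardiomyocyte marker sums, given above, were not alike in these groups, and the part of cell types in the values of these lists was not tested.

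The adjusted p values of list genes below are over all tested genes. Since only genes of the study's selection can be named, these values are part of the description and not independent of that selection. Among microfibril genes, LTBP1, which anchors latent TGF-β to fibrillin, rose with pergolide (log2 fold change 0.62, adjusted p = 0.0015) and dexfenfluramine (0.66, adjusted p = 0.00079), close to the values of FBN1. TNXB, a tenascin, also rose with each drug (log2 fold change 0.69 and 0.91, adjusted p = 0.0075 and 0.00081), as did MFAP3 (0.38 and 0.42, adjusted p = 0.02 and 0.0095). LTBP2 passed with dexfenfluramine (0.57, adjusted p = 0.049) and not with pergolide (0.38, adjusted p = 0.2), with 0.19 between the drugs (adjusted p = 0.84). MFAP5, a microfibril-associated glycoprotein, passed with neither drug (0.11 and 0.47, adjusted p = 0.74 and 0.1). Of the elastic fibre genes 0 of 3 passed. EFEMP1, encoding fibulin-3, had log2 fold changes of -0.73 with pergolide and -0.05 with dexfenfluramine (adjusted p = 0.093 and 0.93). FBLN5, encoding fibulin-5, had 0.15 and 0.34, and LOX, the crosslinking enzyme lysyl oxidase, 0.44 and 0.48.

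**Figure D5:**
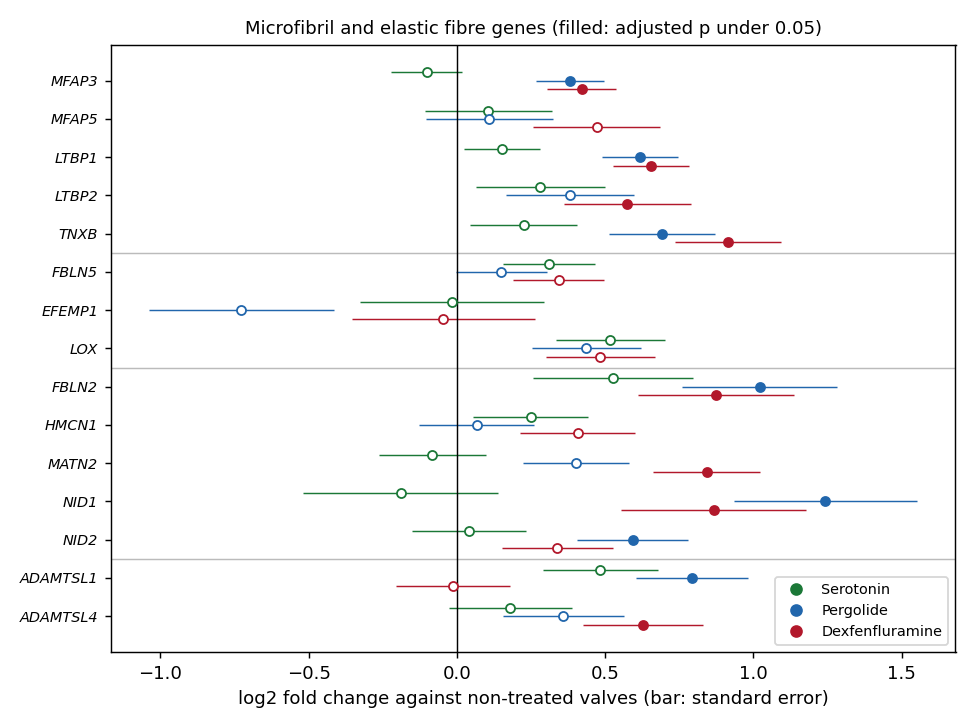
Log2 fold changes against non-treated valves of the 15 genes with a symbol in the microfibril and elastic fibre list, by treatment. The list also holds other fibulins and modular glycoproteins and ADAMTS-like genes. Bars are standard errors, filled points have an adjusted p under 0.05 in the edgeR fit, and grey lines part the lists. The filled points number 0 for serotonin, 7 for pergolide and 8 for dexfenfluramine, all above 0.

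In the group of other fibulins and modular glycoproteins, FBLN2, encoding fibulin-2, rose with both drugs (1.02 and 0.87, adjusted p = 0.007 and 0.017), and so did NID1, encoding the basement membrane protein nidogen-1 (1.24 and 0.87, adjusted p = 0.0059 and 0.041). NID2 rose with pergolide (0.59, adjusted p = 0.025) and MATN2, a matrilin, with dexfenfluramine (0.84, adjusted p = 0.0016), and HMCN1 passed with neither (0.07 and 0.41). With the other drug NID2 had 0.34 (adjusted p = 0.18) and MATN2 0.40 (adjusted p = 0.11). Neither NID2 nor MATN2 passed between the drugs (adjusted p = 0.78 and 0.68). ADAMTSL1 had a log2 fold change of 0.79 with pergolide (adjusted p = 0.0042) and -0.01 with dexfenfluramine (adjusted p = 0.97), with -0.81 between the drugs (adjusted p = 0.33), a direction it shares with FBLN7. ADAMTSL4, whose product binds fibrillin-1, rose with dexfenfluramine (0.63, adjusted p = 0.025). With pergolide it had 0.36 (adjusted p = 0.21), and it did not pass between the drugs (adjusted p = 0.78).

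Of 7 tested genes in the list for the processing and folding of fibrillin, 4 were higher and 0 lower with each drug, where 28.1% and 31.8% of the tested genes with a symbol were higher. HSPG2 is in this list but encodes perlecan, a matrix proteoglycan and not a processing enzyme. It had log2 fold changes of 0.42 and 0.51 (adjusted p = 0.019 and 0.0047). The glycosyltransferase genes POGLUT1 and KDELC1 had 0.33 and 0.35 with pergolide and 0.37 and 0.35 with dexfenfluramine. PCSK6, a proprotein convertase, was the other with pergolide (0.82) and FKBP10, a prolyl isomerase, with dexfenfluramine (0.64). With the other drug PCSK6 had 0.58 (adjusted p = 0.1) and FKBP10 0.39 (adjusted p = 0.17). Neither PCSK6 nor FKBP10 passed between the drugs (adjusted p = 0.83 and 0.79). PCSK5, another convertase, and KDELC2 passed with neither drug (0.26 and 0.38, adjusted p = 0.22 and 0.066, and 0.32 and 0.46, adjusted p = 0.24 and 0.078). Of 2 integrin genes, ITGB8 fell by 0.34 with pergolide and by 0.42 with dexfenfluramine, and ITGB3 was called with dexfenfluramine (0.63), with an adjusted p of 0.05 that lies at the threshold. With pergolide ITGB3 had 0.30 (adjusted p = 0.38), and between the drugs it did not pass (adjusted p = 0.78). None of 7 partners of polydom had a symbol.

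Of the ligands that microfibrils hold, BMP2 alone had a symbol, and it rose with pergolide (1.05, adjusted p = 0.023) and dexfenfluramine (0.90, adjusted p = 0.045). Of 9 tested receptors and readouts of TGF-β, which include LTBP1 again, 6 were higher with pergolide and 7 with dexfenfluramine and 0 lower, where 28.1% and 31.8% of the tested genes with a symbol were higher and 28.7% and 34.4% lower. TGFBR3 rose by 0.36 and 0.47, and TGFBI, a matrix protein induced by TGF-β, by 0.55 and 0.87, while TGFBR2 passed with neither drug (0.07 and 0.25). The protease gene MMP2 rose by 0.45 and 0.60, and TIMP1, an inhibitor of such proteases, by 0.50 and 0.66. Serotonin called 0 genes of these lists, where TIMP1 had a log2 fold change of 0.63 (adjusted p = 0.071) and BMP2 of 0.96 (adjusted p = 0.18).

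In the RefSeq annotation of the rabbit assembly mOryCun1.1, which is not the one the reads were aligned to, FBN1 lies between DUT and CEP152, FBLN7 between TMEM87B and ZC3H8, and SVEP1 between TXNDC8 and MUSK. FBN1 overlaps 2 genes of long non-coding RNAs there, SVEP1 a small nuclear RNA gene and a pseudogene, and FBLN7 no other gene. The strand setting of the counting is not given in the sources used here, so reads of FBN1 and SVEP1 and of genes that overlap them may not be fully parted.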

How the data were processed

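Counts of reads on each Ensembl gene were made and deposited by the authors, with no normalization. Before that, ribosomal RNA was removed, the libraries were stranded, TopHat (version 2.1.1 in the submitters' notes) placed the reads on the oryCun2 assembly of the rabbit, and HTSeq counted them. For the annotation release, the strand setting and reads with several alignments, the details are not given in the sources used here. The methods and labels give the dexfenfluramine dose printed here, and another passage of the paper a lower one. The valves of a group come from separate rabbits.

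Counts were normalized by TMM, filtered by filterByExpr with the 4 groups and tested by the quasi-likelihood test of edgeR 4.0.16 (R 4.3.3) in a single fit of all 20 valves, with Benjamini-Hochberg adjustment over 8683 genes and a threshold of 0.05. The fit was tested on simulated data, and no result of that test is given or used here. The study used limma-voom with svaseq and RUVr variables after HTSFilter. HTSFilter was not applied, and limma 3.58.1, sva 3.50.0, which found 4 variables, and 1 RUVr factor were alternatives, as were DESeq2 1.42.0, its size factors, other filters, the most abundant gene left out, the replicate block, only the groups compared, and each valve left out. Permutation tests used scipy 1.17.1 and numpy 2.4.6. Log2 CPM had a prior count of 2.

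Symbols were taken only from the study's gene table, in which 564 rows had an identifier with an extra zero that was removed and 276 could not be matched. Of the tested genes 3448 (39.7%) had a symbol. Genes named are the members, in each list (marker lists by their most abundant gene) the 4 of highest mean log2 CPM and the called genes where 5 or fewer were called, and for each member the 5 genes with the highest correlation. TNNT2 and ACTC1 of the cardiomyocyte list and COL3A1 and LUM of the interstitial list are named besides. The members and lists were chosen with earlier results of these data known. No sequences of these genes were used here.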

Additional observations from a re-analysis of the deposited data

Results flagged for a closer look

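A pair of valves lay far from the other valves of their group. FBLN7 in serotonin replicate 2 was the lowest of its group at 26.9 CPM, and its gap to the next valve was 0.734 of the group's whole range. SVEP1 in dexfenfluramine replicate 2 was the highest of its group at 114 CPM, with a gap of 0.840 of the range. Both shares are past Dixon's 95% critical value for groups of 5. Of the 12 groups of valves (3 genes in 4 groups each) 2 were past it, and chance gives about 1 in 20. Without serotonin replicate 2 the log2 fold change of FBLN7 against non-treated valves was 1.00 after serotonin, and without dexfenfluramine replicate 2 that of SVEP1 was 0.41 after dexfenfluramine.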

How the results depend on the processing

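Over 378 alternatives to the log2 fold changes of FBN1, FBLN7 and SVEP1, 367 were unchanged, which for tested values means the same direction and side of the threshold and for the others the same sign and a move smaller than the spread of the valves. Against non-treated valves 188 of 189 alternatives kept their sign. The cause of the changes below was not tested. With svaseq variables FBLN7 was 0.22 (dexfenfluramine) and 0.90 (pergolide) against non-treated valves, -0.74 in dexfenfluramine against serotonin and -0.058 in pergolide against serotonin, and FBN1 was -0.0081 in serotonin against non-treated and -0.0111 in dexfenfluramine against pergolide. With 1 RUVr factor FBLN7 was -0.66 in dexfenfluramine against pergolide and 0.44 in pergolide against serotonin, and both passed. Without non-treated and dexfenfluramine replicates 3 together, an alternative added after the data had been seen, FBN1 was -0.0054 in dexfenfluramine against pergolide. In fits that left out each valve in turn that value ranged from -0.0047 to 0.10, and SVEP1 in dexfenfluramine against serotonin from -0.23 to 0.0058, which was its value without serotonin replicate 3. Genes called for serotonin, 103 in the fit reported, numbered 53 with DESeq2's size factors, 37 without the most abundant gene, 48 without a filter, 58 with at least 10 counts in every valve, 234 with DESeq2, 538 with 1 RUVr factor, 0 with the groups compared alone and 481 without both replicates 3. With a valve left out they ranged from 0 to 257: 0 without non-treated replicate 2 or 5 or serotonin replicate 1, 257 and 3 without replicates 3 and 4 of the non-treated group, and 4, 21 and 50 without serotonin replicates 2, 4 and 5. With svaseq variables 1156 genes were called for pergolide, 987 for dexfenfluramine, and 1506 and 1381 for these against serotonin. Between the drugs DESeq2 called 4 and RUVr 115. Of the 15 genes of the microfibril and elastic fibre list, dexfenfluramine called 5 with limma-voom, 2 with svaseq variables and 5 to 9 with a valve left out (5 without non-treated replicate 4). With svaseq variables pergolide called 4, and dexfenfluramine 3 against serotonin. RUVr called 12 for dexfenfluramine, 10 for pergolide, 1 between the drugs and 1 for serotonin, and without both replicates 3 serotonin called 1. Pergolide against serotonin called 3 to 4 with a valve left out (3 without serotonin replicate 2 or 5). Valves with the same replicate number did not deviate together: over 30 pairs the correlation of their deviations was -0.342 to 0.492, 6 pairs were over 0.1, and 5 of 20 valves correlated best with their own number. With the replicate block, serotonin called 1 gene, pergolide 1988 and dexfenfluramine 2365, against serotonin the drugs called 2228 and 2485, dexfenfluramine called 7 of the 15 genes, and no other count for those 15 and no call of FBN1, FBLN7 or SVEP1 changed.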
